A study of Homo sapiens with 12 samples.

Results

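Androgen-induced target genes outside the kallikrein family were followed in 2 human prostate cancer cell lines after exposure to nicotine. The list held 35 genes known from the literature as induced by androgen, and 29 of them had a probe set with 1 gene symbol on the array, among 11963 genes measured that way. SLC45A3, ACSL3, SORD, KCNN2, HERC3 and ERRFI1 had none and are not analysed here. The groups were LnCaP cells treated with 100 µM nicotine tartrate for 24 h, untreated LnCaP cells, 22RV1 cells treated in the same way and untreated 22RV1 cells, with 3 arrays in each and 12 in all. Both are established lines of prostate carcinoma cells, LnCaP from a lymph node metastasis and 22RV1 from a xenograft that had relapsed after castration of the host. The labels name no vehicle for the controls, no androgen added or withdrawn, and no separate cultures behind the replicates. The p-values therefore reflect only how far these arrays scatter, which can be technical. The RNA is that of whole cultures, so fewer cells with a transcript and less of it in each cell cannot be told apart.

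The androgen receptor is a transcription factor that binds DNA once it carries testosterone or dihydrotestosterone. It acts together with the pioneer factor FOXA1 and with coactivators, mostly at enhancers away from the gene start. Its induced genes serve secretion, membrane transport, lipid metabolism and feedback on steroid signalling, and several of them also respond to the glucocorticoid receptor, which recognises nearly the same DNA element. LnCaP cells carry a mutated, promiscuous androgen receptor, and 22RV1 cells also make receptor forms that lack the ligand-binding domain. Their receptor gene itself is not analysed here.

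Luminal prostate markers were present in every group. The 7 measured of 8 markers, which included KLK3, HOXB13, KRT8, KRT18, EPCAM and CDH1, had array means of log2 values between 11.34 and 11.35 in nicotine-treated LnCaP cells, 11.29 and 11.52 in untreated LnCaP cells, 10.07 and 10.72 in nicotine-treated 22RV1 cells, and 10.32 and 10.83 in untreated 22RV1 cells. The 3 measured leukocyte markers stayed between 4.12 and 4.42 over all arrays. Replicate number 3 was the least typical: its 4 arrays accounted for 48.05% of the squared deviations from group means over all genes, and for 53.3% over the 29 members.

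Nicotine-treated LnCaP cells had lower values than untreated LnCaP cells for most androgen-induced genes, by small amounts. Of the 29 members, 21 had negative log2 fold changes, with a median of -0.14. Among these 21 were STEAP4, ORM1, SGK1, AMACR and TRPM8, whose low values cannot be told from background without detection calls. Over all 11963 genes 6029 were negative, with a median of -0.0014. In the fit of group means, limma called 0 members at an adjusted p under 0.05 and called 0.694% of all genes. At an unadjusted p under 0.05 were 3 members and 1456 of the 11963 genes. Same-numbered arrays varied together, and a fit with the replicate number as a block called 6 members, of which 5 fell and 1 rose, while it called 5.39% of all genes (3.28% lower and 2.11% higher). The genes that fell in the blocked fit were HPGD, FKBP5, HOMER2, STK39 and PART1, and the gene that rose was MAF. These 6 calls were not kept together when the arrays of 1 number were left out. Without number 1 the limma fit with the block called HPGD alone among the members (log2 fold change -1.23, adjusted p = 0.0469, with 0.451% of all genes called). Without number 2 it called 0 members (0.00836% of all genes), with HPGD at an adjusted p of 0.143 and FKBP5 at 0.0848. Without number 3 it called TMPRSS2 alone (-0.88, adjusted p = 0.0248, with 1.5% of all genes called).

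HPGD, which encodes the dehydrogenase that inactivates prostaglandins, showed the largest difference of the members in LnCaP. It had log2 values of 4.97, 4.98 and 4.83 in nicotine-treated LnCaP cells, against 5.34, 5.85 and 6.42 in untreated LnCaP cells. All 3 treated arrays lay below all 3 untreated arrays. These are low values, which without detection calls cannot be told from background, so the size of the difference is not settled. The log2 fold change was -0.94 ± 0.22 (SE, n = 3 arrays per group, adjusted p = 0.0766), and with the replicate block -0.94 ± 0.19 (adjusted p = 0.0230). The other probe sets of HPGD gave log2 differences of -1.07, -0.54 and -0.10, so they shared the sign and not the size.

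FKBP5, an immunophilin and cochaperone of steroid receptors that is widely used as a readout of androgen and glucocorticoid action, had 7.18, 7.21 and 7.47 in nicotine-treated LnCaP cells and 8.08, 7.47 and 8.11 in untreated LnCaP cells. The groups met at the highest treated and the lowest untreated array. Its log2 fold change was -0.60 ± 0.26 (SE, n = 3 per group, adjusted p = 0.392), and ± 0.14 with the block (adjusted p = 0.0428). TMPRSS2, the membrane serine protease whose androgen-driven promoter is joined to ERG in many prostate tumours, had 9.89, 9.39 and 10.48 in nicotine-treated LnCaP cells, against 10.84, 10.20 and 10.67 in untreated LnCaP cells. The groups overlapped, and each treated array was below the untreated array of its number. TMPRSS2 was at -0.65 ± 0.29 (adjusted p = 0.396, and 0.0588 with the block). Its other probe set gave a difference of -0.52.

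STK39, a kinase that regulates cation-chloride cotransport, had 9.05, 8.75 and 9.40 in nicotine-treated LnCaP cells and 9.42, 9.43 and 9.66 in untreated LnCaP cells, without overlap. Its log2 fold change was -0.43 ± 0.25 (SE, n = 3 per group, adjusted p = 0.560, and 0.0236 with the block). PART1, a prostate long noncoding RNA, had 6.65, 6.45 and 6.96 with nicotine and 6.96, 6.92 and 7.37 without, at -0.40 ± 0.18 (adjusted p = 0.414, and 0.0488 with the block). The dimmer probe sets of PART1 were at 0.09 and -0.04. HOMER2, a scaffold protein gene, had 8.02, 8.26 and 8.77 in nicotine-treated LnCaP cells, against 8.52, 8.67 and 9.37 in untreated ones, at -0.50 ± 0.26 (adjusted p = 0.505, and 0.0494 with the block). For PART1 and HOMER2 the groups touched or overlapped, while every same-numbered pair was lower with nicotine.

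MAF, a bZIP transcription factor, moved the other way. Its log2 values were 6.36, 6.49 and 7.29 in nicotine-treated LnCaP cells and 5.64, 6.33 and 6.73 in untreated LnCaP cells, so the groups overlapped and each treated array exceeded its numbered partner. The log2 fold change was 0.48 ± 0.26 (SE, n = 3 per group, adjusted p = 0.530, and 0.0414 with the block). The dimmer MAF probe sets were at 0.04 and -0.05. DBI, the acyl-CoA-binding protein gene, did not pass in either fit, with 11.89, 11.87 and 12.10 in nicotine-treated LnCaP cells, against 12.01, 12.13 and 12.45 in untreated LnCaP cells (log2 fold change -0.24 ± 0.11, adjusted p = 0.424, and 0.0955 with the block). All 3 of its probe sets had negative differences.

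Single arrays carried much of several of these differences, each from group means. Without LnCaP untreated replicate 3 the log2 fold change was -0.13 for ELL2 (an elongation factor gene), -0.25 for HOMER2, -0.25 for PART1 and -0.12 for DBI. Without LnCaP nicotine replicate 2 it was -0.38 for TMPRSS2 (adjusted p = 0.817) and -0.28 for STK39, and without LnCaP nicotine replicate 1 it was -0.34 for HOMER2. MAF was at 0.18 without LnCaP untreated replicate 1, 0.19 without LnCaP nicotine replicate 3 and 0.72 without LnCaP untreated replicate 3. HPGD and FKBP5 moved by less than 1.5 times whichever LnCaP array was left out. AMACR, BMPR1B, STEAP4, ORM1, TPD52 and TRPM8 were negative with all arrays and turned positive without at least 1 of the LnCaP arrays. KLF9, NDRG1 and TSC22D3 turned from positive to negative in the same way.

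**Figure D1:**
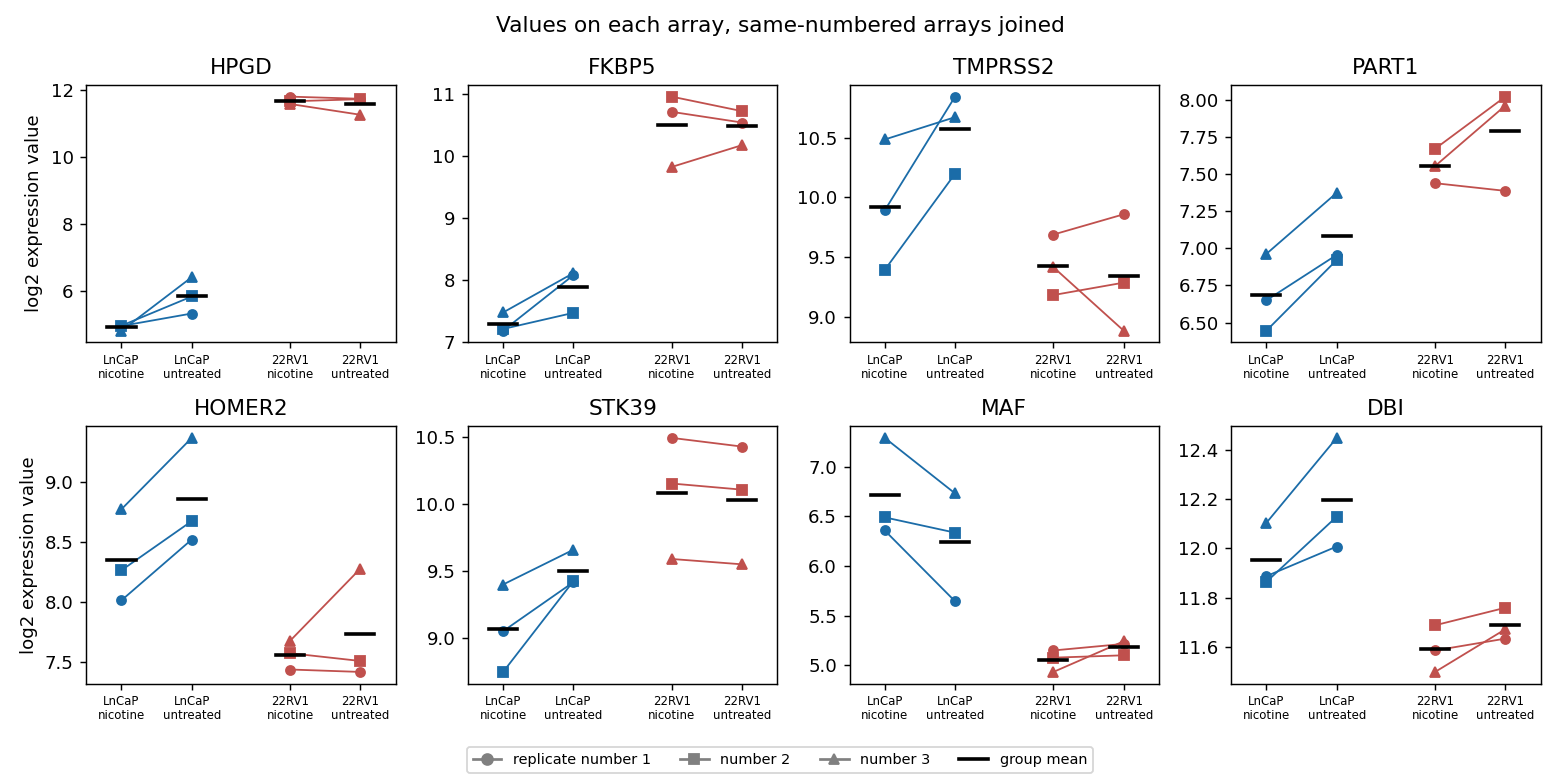
Log2 expression value (vertical axis, own scale in each panel) of 8 androgen-induced genes on each of the 12 arrays, by line and treatment. Circles, squares and triangles are replicate numbers 1, 2 and 3, joined within a line, and black bars are group means; in LnCaP the treated array of every number lies below its partner for HPGD, FKBP5, TMPRSS2, PART1, HOMER2, STK39 and DBI and above it for MAF, and in 22RV1 DBI and MAF are lower and STK39 higher in 3 of 3 pairs, with the others mixed.

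By role, log2 fold changes of the 4 measured lipid metabolism genes were all negative in LnCaP: besides HPGD and DBI these were PLPP1, a lipid phosphatase, at -0.28 ± 0.26 and AMACR, a racemase of branched-chain fatty acids, at -0.09 ± 0.28. None passed in the fit of group means, and HPGD fell with the block. Among 7 surface, secreted and transport proteins 0 passed in either fit, with a median of -0.02. TMPRSS2 was the lowest of them, ADAMTS1, a secreted metalloprotease, was at 0.27 ± 0.22 (0.08 without LnCaP untreated replicate 3), and STEAP1, a membrane protein of the metalloreductase family, was at 0.19 ± 0.14 with no overlap between the groups. Its relative STEAP4 had low values, between 3.15 and 3.51 on all 12 arrays.

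Transcription regulators split in LnCaP, with 4 of 7 positive and a median of 0.04. The elongation factor gene ELL2 was at -0.39 ± 0.25 and that of its partner EAF2 at -0.19 ± 0.20, both without overlap between groups, while the other probe set of ELL2 was at 0.11. MAF rose with the block. TSC22D1, a leucine zipper protein gene, was at 0.13 ± 0.12, and its relative TSC22D3, known as the glucocorticoid-induced leucine zipper, at 0.04 ± 0.27. KLF9 had 8.54, 8.18 and 8.23 in nicotine-treated LnCaP cells and 8.35, 8.02 and 8.32 in untreated LnCaP cells, with overlap (0.09 ± 0.27). Of 11 genes of signalling, chaperones, trafficking and growth control, 9 had negative values (median -0.15), and the block called FKBP5, STK39, HOMER2 and PART1. NDRG1 (0.08 ± 0.18), a differentiation and stress gene, and CAMKK2 (0.14 ± 0.14), a kinase upstream of AMPK, were the positive ones. The 5 measured members known also as glucocorticoid targets (FKBP5, ZBTB16, SGK1, TSC22D3 and KLF9) had a median of -0.15, and FKBP5 was the one called with the block. SGK1 had 4.84, 4.91 and 4.94 in nicotine-treated LnCaP cells and 5.09, 5.08 and 4.97 in untreated LnCaP cells, with a gap between the groups far smaller than their range (-0.15 ± 0.11).

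Over same-numbered arrays of LnCaP, 16 of the 29 members were lower with nicotine in 3 of 3 pairs, against 21.8% of all genes, and 4 were higher in 3 of 3, against 19.1%. Groups without overlap were found for 5 members lower with nicotine (HPGD, STK39, ELL2, EAF2 and SGK1; 10.1% of all genes) and for STEAP1 and TSC22D1 higher (7.1% of all genes). HPGD and SGK1 had low values without detection calls. The members share their arrays and are not replicates of each other.

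**Figure D2:**
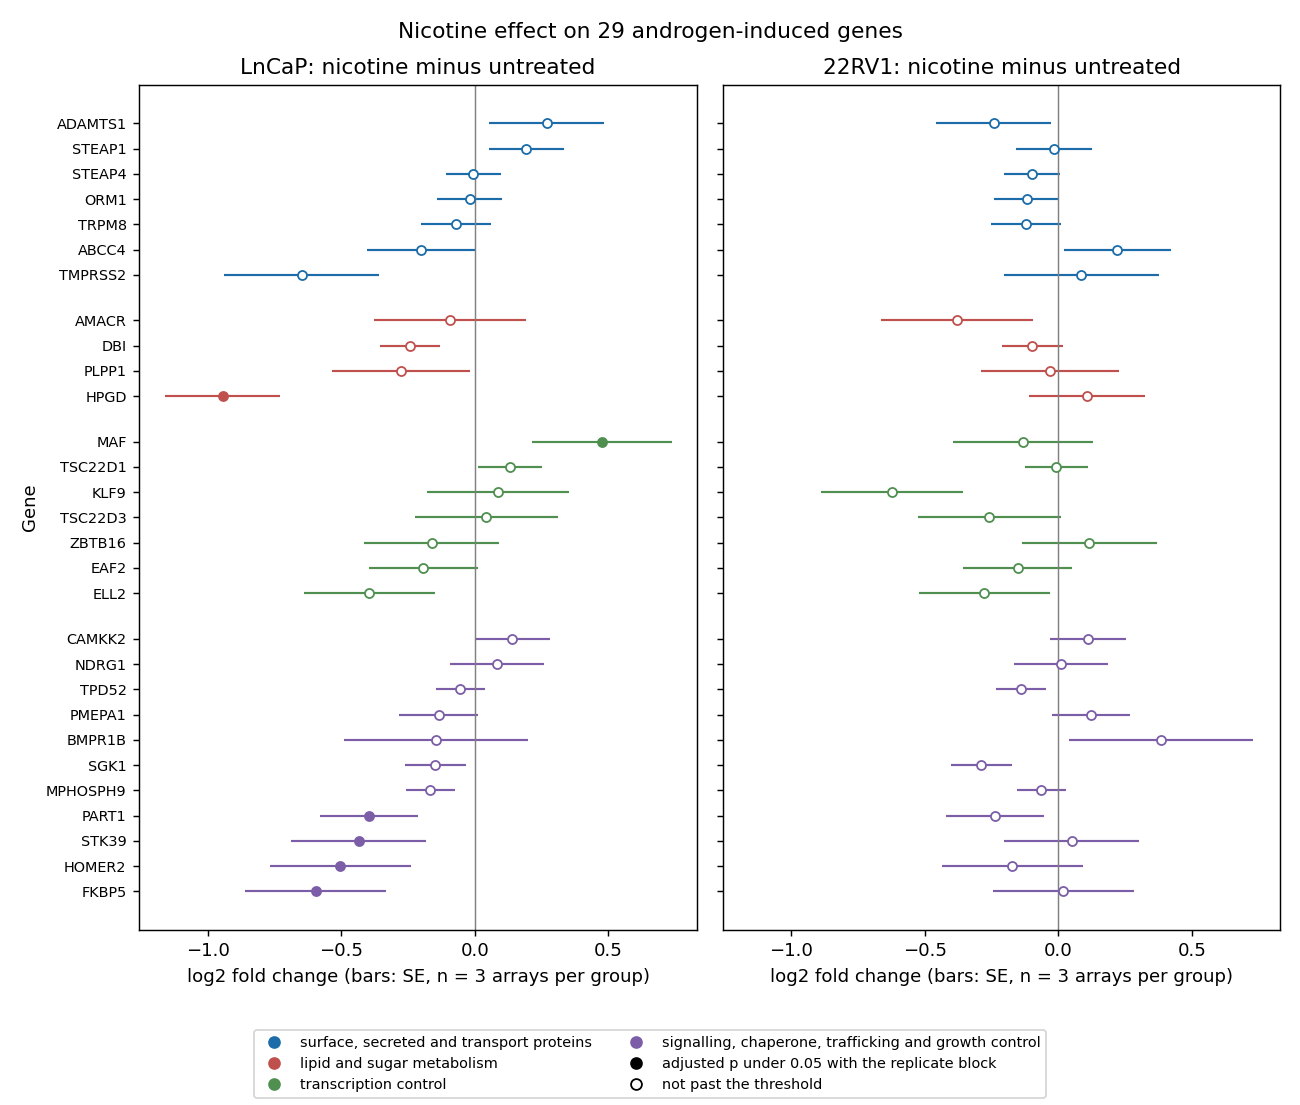
Log2 fold change of nicotine-treated against untreated cells (horizontal axis, bars are SE of the fit of group means, n = 3 arrays per group) for the 29 measured genes, grouped by role, in LnCaP (left) and 22RV1 (right). Filled points passed an adjusted p of 0.05 in the fit with the replicate block; 6 did in LnCaP and 0 in 22RV1, and 21 points lie left of 0 in LnCaP and 19 in 22RV1.

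The sequences before the start sites of all members found in the set of RefSeq start sites used here, called or not, were read. They were searched for the element that the androgen and glucocorticoid receptors share, since members of a target list can hold it near the start. The motif searched was the half-site AGAACA on either strand (TGTTCT on the other), and the palindrome AGAACANNNTGTTCT, which contains both. Windows were the 250 bases before a start site in RefSeq (GRCh38.p14), and 22 of the 29 members matched, with 46 windows; TMPRSS2, ELL2, ADAMTS1, ZBTB16, NDRG1, TPD52 and PLPP1 were not read here. A half-site was in 4 of these windows (8.7%), in PMEPA1, STK39, TRPM8 and TSC22D1, against 12.4% of all 35116 windows, and the palindrome was in 0 of them. Shown are the STK39 window (chr2:168247596-168247845, minus strand) and a PMEPA1 window (chr20:57710578-57710827, minus strand), which each hold 1 half-site in capitals, and windows of HPGD (chr4:174522489-174522738, minus strand) and FKBP5 (chr6:35688916-35689165, minus strand), which hold none. All are written 5′ to 3′ and end at the base before the start site.
STK39: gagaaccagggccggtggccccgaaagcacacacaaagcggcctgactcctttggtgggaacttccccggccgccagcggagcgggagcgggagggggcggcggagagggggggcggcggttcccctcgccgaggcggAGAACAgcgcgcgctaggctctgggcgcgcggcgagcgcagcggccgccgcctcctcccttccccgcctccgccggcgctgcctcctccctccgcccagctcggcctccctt
PMEPA1: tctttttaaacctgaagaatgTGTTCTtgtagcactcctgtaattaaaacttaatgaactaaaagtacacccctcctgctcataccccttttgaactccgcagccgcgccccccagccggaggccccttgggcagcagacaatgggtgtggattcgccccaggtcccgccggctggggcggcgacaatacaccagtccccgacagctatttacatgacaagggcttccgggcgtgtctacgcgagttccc
HPGD: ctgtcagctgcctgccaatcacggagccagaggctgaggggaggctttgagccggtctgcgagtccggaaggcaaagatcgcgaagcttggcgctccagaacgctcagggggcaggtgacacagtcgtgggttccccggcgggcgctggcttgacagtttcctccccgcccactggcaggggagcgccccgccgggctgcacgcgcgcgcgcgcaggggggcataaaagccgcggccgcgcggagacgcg
FKBP5: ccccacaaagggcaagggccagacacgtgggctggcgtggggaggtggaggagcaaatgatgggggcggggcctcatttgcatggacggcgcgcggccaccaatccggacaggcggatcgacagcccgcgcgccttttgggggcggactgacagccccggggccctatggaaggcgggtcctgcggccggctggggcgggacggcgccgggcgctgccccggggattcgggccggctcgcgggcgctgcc
The half-site began 112 bases before the start in STK39 and 229 bases before it in PMEPA1. A match of these letters describes the window and shows no binding.

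In 22RV1 cells no androgen-induced gene was called. Limma called 0 of 29 members and 0% of all genes in the fit of group means and with the block, with 2 and 6 members, and 633 and 1351 genes in all, at an unadjusted p under 0.05. Values were negative for 6252 of the 11963 genes in all (median -0.0071) and for 19 of the 29 members (median -0.10). Among these 19 were again the dim genes STEAP4, ORM1, SGK1, AMACR and TRPM8. KLF9, a zinc finger transcription factor gene, was lowest. It had 6.81, 6.77 and 6.24 in nicotine-treated 22RV1 cells, against 7.5, 7.70 and 6.49 in untreated 22RV1 cells, with overlap through the untreated array numbered 3 (log2 fold change -0.62 ± 0.27, adjusted p = 0.921, and 0.176 with the block). Its 2 other probe sets were at -0.81 and -0.21.

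SGK1, a kinase that controls ion channels and cell survival, had 4.70, 4.77 and 4.5 in nicotine-treated 22RV1 cells and 5.22, 4.85 and 4.77 in untreated 22RV1 cells. One treated and one untreated array were almost equal, and the log2 fold change was -0.29 ± 0.11 (adjusted p = 0.903, and 0.293 with the block). AMACR had 4.47, 4.15 and 4.5 with nicotine, against 5.0, 4.46 and 4.80 without, at -0.38 ± 0.28 (adjusted p = 0.983, and 0.217 with the block), and its other probe set was at 0.03. SGK1 and AMACR lay in the lowest 25% of genes by mean value, and without detection calls their values cannot be told from background. TPD52, a vesicle trafficking protein gene often amplified in prostate cancer, had 10.45, 10.46 and 10.30 in nicotine-treated 22RV1 cells and 10.61, 10.55 and 10.47 in untreated 22RV1 cells, with no overlap and a small difference (-0.14 ± 0.09, adjusted p = 0.975). With 1 array of 22RV1 left out, KLF9 was at -0.39 without untreated replicate 2 and -0.99 without untreated replicate 3, SGK1 at -0.15 without untreated replicate 1, and TPD52 at -0.09 without nicotine replicate 3.

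HPGD, TMPRSS2, FKBP5 and STK39, all lower with nicotine in 3 of 3 LnCaP pairs, had differences within 1 SE of 0 in 22RV1. FKBP5 had 10.70, 10.95 and 9.82 in nicotine-treated 22RV1 cells, against 10.53, 10.72 and 10.17 in untreated ones, at 0.02 ± 0.26. TMPRSS2 had 9.69, 9.18 and 9.41 with nicotine and 9.86, 9.29 and 8.88 without, at 0.09 ± 0.29. HPGD was at 0.11 ± 0.22 and STK39 at 0.05 ± 0.25. PART1 had 7.44, 7.67 and 7.55 in nicotine-treated 22RV1 cells and 7.39, 8.02 and 7.96 in untreated ones (-0.24 ± 0.18). Its dimmer probe sets were at 0.06 and 0.12. MAF had 5.15, 5.08 and 4.93 with nicotine, against 5.21, 5.10 and 5.24 without (-0.13 ± 0.26).

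Over same-numbered 22RV1 arrays, 11 members were lower in 3 of 3 pairs (18.4% of all genes) and 4 were higher (17.0% of all genes). ELL2, DBI, SGK1 and MPHOSPH9 were lower in 3 of 3 pairs in both lines, a share that was not computed over all genes. The other probe set of ELL2 was at 0.11 in LnCaP and 0.02 in 22RV1. That of MPHOSPH9 was at -0.31 in LnCaP and 0.02 in 22RV1, and those of DBI were negative in both lines. Groups did not overlap for ORM1 and TPD52, lower with nicotine (6.47% of all genes), and for the receptor gene BMPR1B, higher (5.42% of all genes). ORM1 and SGK1 had low values without detection calls.

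The difference of the nicotine effect between LnCaP and 22RV1 was not called for any member. From group means the test of that difference called 0 of 29 members and 0% of all genes. There 1 member and 749 of the 11963 genes had an unadjusted p under 0.05. With the block it called 0 members and 0.159% of all genes. In that fit 11 members and 1577 genes in all had an unadjusted p under 0.05. The effect on HPGD in LnCaP minus that in 22RV1 was -1.05 ± 0.31 (SE, log2 scale, adjusted p = 0.678, and 0.154 with the block). The same difference was -0.73 ± 0.41 for TMPRSS2 and -0.61 ± 0.37 for FKBP5, and it was 0.71 ± 0.38 for KLF9, 0.61 ± 0.37 for MAF and 0.51 ± 0.30 for ADAMTS1. Averaged over both lines, 0 members passed from group means (0.376% of all genes), and with the block PART1 fell (-0.32 ± 0.07, adjusted p = 0.0430, with 3.31% of all genes called, 1.28% higher and 2.03% lower). PART1 was called in 0 of the blocked fits that left out 1 number. Its dimmer probe sets did not share the fall, at 0.09 and -0.04 in LnCaP and 0.06 and 0.12 in 22RV1.

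The 2 lines differed far more from each other than nicotine-treated from untreated cells. In nicotine-treated cells 13 members were higher and 7 lower in LnCaP than in 22RV1, at a rate of 49.9% called over all genes (26.2% higher and 23.7% lower). In untreated cells, which are other arrays, 13 were higher and 6 lower, at a rate of 47.8% (25.4% higher and 22.4% lower). Of the calls, 16 were made in both, all in the same direction, which is 80.0% of the nicotine-treated and 84.2% of the untreated calls. The share of calls made in both states was not computed over all genes, so this overlap does not set the members apart. Whether the shares of members called differ from those of all genes was not tested.

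HPGD was the member with the largest line difference. It had 4.97, 4.98 and 4.83 in nicotine-treated LnCaP cells, against 11.80, 11.66 and 11.58 in nicotine-treated 22RV1 cells. In untreated cells it had 5.34, 5.85 and 6.42 in LnCaP and 11.73, 11.72 and 11.26 in 22RV1, which gives a log2 difference of -5.70 ± 0.22 (SE, n = 3 per group, adjusted p = 1.05e-09). All 4 of its probe sets gave differences between -5.64 and -6.09. FKBP5 differed by -3.20 ± 0.26 between LnCaP and 22RV1 in nicotine-treated cells (adjusted p = 8.16e-07) and by -2.59 ± 0.26 in untreated cells (adjusted p = 5.67e-06).

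PMEPA1, a membrane protein gene that feeds back on androgen and TGF-beta signalling, had 7.69, 7.80 and 8.01 in nicotine-treated LnCaP cells, against 11.00, 10.70 and 10.61 in nicotine-treated 22RV1 cells. Untreated cells had 7.93, 7.81 and 8.18 in LnCaP and 10.81, 10.74 and 10.38 in 22RV1 (-2.68 ± 0.15, adjusted p = 2.51e-08). ELL2 had 6.82, 6.7 and 6.82 in nicotine-treated LnCaP cells, against 9.56, 9.74 and 8.90 in nicotine-treated 22RV1 cells. For ELL2, untreated cells had 6.89, 6.93 and 7.70 in LnCaP and 9.74, 9.96 and 9.34 in 22RV1 (-2.50 ± 0.25, adjusted p = 4.04e-06), and its other probe set differed by -0.70. ZBTB16, a transcriptional repressor, was also lower in LnCaP (-1.13 ± 0.25, adjusted p = 0.00258). For HPGD, FKBP5, PMEPA1 and ELL2 no LnCaP array reached any 22RV1 array.

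ABCC4, which encodes an efflux pump for cyclic nucleotides and prostaglandins, lay at the opposite end. It had 10.27, 10.31 and 10.70 in nicotine-treated LnCaP cells, against 5.69, 6.16 and 5.26 in nicotine-treated 22RV1 cells. In untreated cells it had 10.46, 10.69 and 10.72 in LnCaP and 5.50, 5.69 and 5.25 in 22RV1, a difference of 5.14 ± 0.20 (SE, n = 3 per group, adjusted p = 1.26e-09). ADAMTS1 had 10.92, 11.21 and 10.68 in nicotine-treated LnCaP cells, against 6.47, 6.28 and 6.94 in nicotine-treated 22RV1 cells. Its untreated values were 10.66, 11.04 and 10.30 in LnCaP and 7.07, 6.74 and 6.62 in 22RV1 (3.86 ± 0.22, adjusted p = 3.06e-08). For both genes every LnCaP array lay above every 22RV1 array. Without detection calls, the low values of HPGD in LnCaP and ABCC4 in 22RV1 cannot be told from background. The size of their log2 differences is therefore not settled.

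Smaller differences in the same direction were those of TMPRSS2 and EAF2. TMPRSS2 differed by 0.49 ± 0.29 in nicotine-treated cells, which did not pass (adjusted p = 0.182), and by 1.23 ± 0.29 in untreated cells (adjusted p = 0.00369). EAF2 had 6.40, 6.18 and 6.33 in nicotine-treated LnCaP cells, against 5.36, 5.41 and 4.84 in nicotine-treated 22RV1 cells (1.10 ± 0.20, adjusted p = 0.000636). In untreated cells it had 6.49, 6.41 and 6.58 in LnCaP and 5.62, 5.62 and 4.81 in 22RV1 (1.14 ± 0.20, adjusted p = 0.000531). The partners ELL2 and EAF2, which act together in transcription elongation, thus differed in opposite directions between the lines. The 22RV1 values of EAF2 were about as low as those of ABCC4 there, so the size of its difference is not settled. CAMKK2, STEAP4, TRPM8, ORM1, SGK1 and PLPP1 were called in neither state, with untreated differences between -0.12 and 0.39.

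Several of the smaller line calls depended on 1 array or on the probe set. In nicotine-treated cells STEAP1 (0.47) lost its call without replicate 3 of nicotine-treated LnCaP (0.41) or of nicotine-treated 22RV1 (0.36), and so did DBI (0.36, with 0.28 and 0.31 without them). AMACR (0.94) lost it without LnCaP replicate 3 (0.69) or 22RV1 replicate 2 (0.83), and TSC22D3 (0.89) without LnCaP replicate 2 (0.78) or 22RV1 replicate 3 (0.67). HOMER2 (0.79) lost it without LnCaP replicate 3 (0.58), 22RV1 replicate 1 (0.72) or 22RV1 replicate 2 (0.79). In untreated cells BMPR1B, a bone morphogenetic protein receptor gene, at 1.11 ± 0.35, lost its call without LnCaP replicate 3 (0.67) or 22RV1 replicate 2 (1.07). MPHOSPH9, a centrosomal protein gene, was at 0.29 ± 0.09 on the brighter of its 2 probe sets and at -1.62 on the other, so its direction is not settled. The call on its brighter probe set was also lost without LnCaP untreated replicate 1 (0.28) or 3 (0.26) or 22RV1 untreated replicate 3 (0.22). One of the 4 probe sets of TPD52 was at -0.99, whereas the others were between 0.51 and 0.61.

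**Figure D3:**
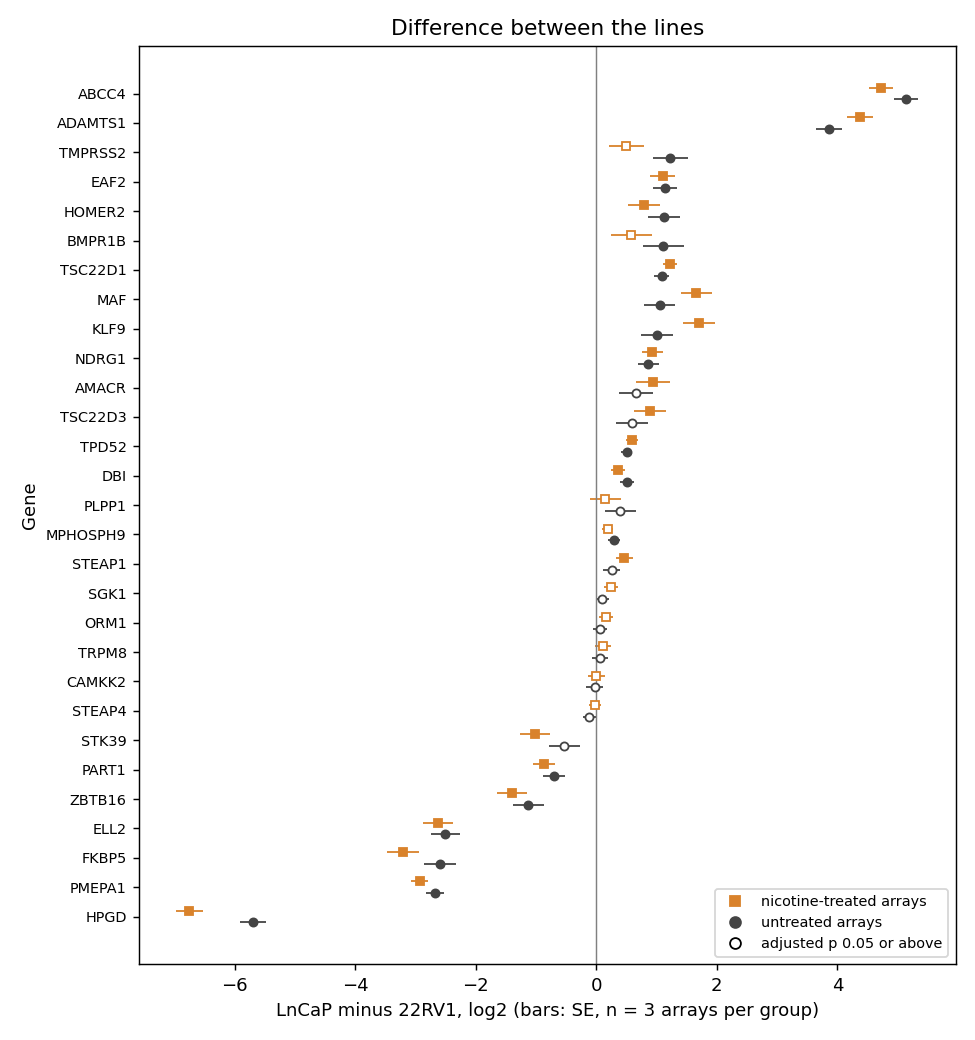
Difference of LnCaP minus 22RV1 on the log2 scale (horizontal axis, bars are SE, n = 3 arrays per group) for the 29 measured genes, in nicotine-treated (squares) and untreated cells (circles). Open symbols did not pass an adjusted p of 0.05; ABCC4 and ADAMTS1 lie farthest to the right and HPGD, PMEPA1, FKBP5 and ELL2 farthest to the left in both states, which share no array.

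Androgen-induced genes also varied more between replicates than most genes. Their median SD within groups was 0.29, against 0.14 over all genes, and 26 of 29 members were above that median of all genes. It was highest for BMPR1B (0.51), TMPRSS2 (0.42) and AMACR (0.41) and lowest for MPHOSPH9 and TPD52 (0.10 each). Part of that spread followed the replicate number. In LnCaP the array numbered 3 exceeded the mean of numbers 1 and 2 in both the nicotine-treated and the untreated group for 20 members (69.0%, against 33.9% of all genes), and in 22RV1 it was below that mean in both groups for 19 members (65.5%, against 30.5%).

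PLPP1 had number 3 apart from the mean of the other numbers by 0.54 and 0.47 in nicotine-treated and untreated LnCaP cells and by -0.59 and -0.70 in nicotine-treated and untreated 22RV1 cells. FKBP5 was apart by 0.28 and 0.34 in nicotine-treated and untreated LnCaP cells and by -1.01 and -0.45 in nicotine-treated and untreated 22RV1 cells. For STK39 the values were 0.50 and 0.24 in nicotine-treated and untreated LnCaP cells and -0.73 and -0.72 in nicotine-treated and untreated 22RV1 cells. NDRG1 had the opposite signs, at -0.34 and -0.29 in nicotine-treated and untreated LnCaP cells and 0.43 and 0.17 in nicotine-treated and untreated 22RV1 cells. BMPR1B, HOMER2, AMACR, ORM1 and STEAP4 were higher on number 3 in all 4 groups, and ZBTB16 and CAMKK2 lower in all 4. The labels do not say what the numbers stand for.

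**Figure D4:**
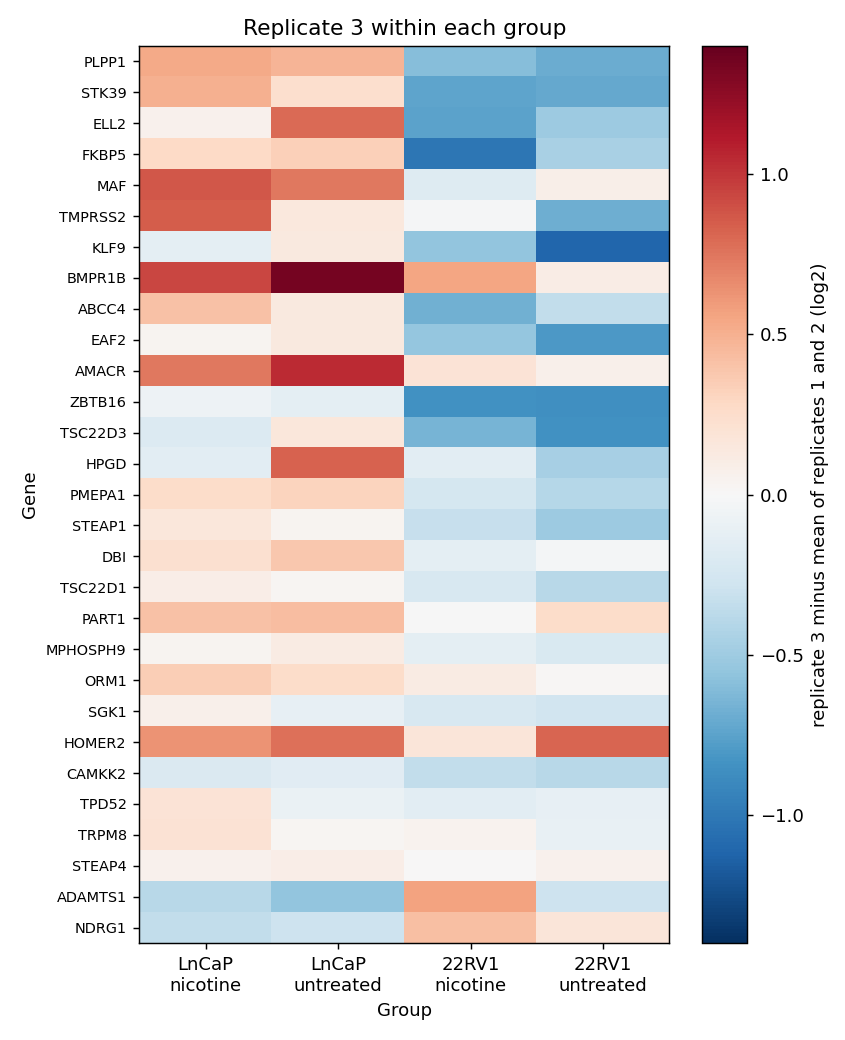
Colour gives the log2 value of the array numbered 3 minus the mean of numbers 1 and 2 for each gene (rows) in each group (columns). Red, higher on number 3, dominates both LnCaP columns (20 of 29 genes higher in both) and blue, lower, dominates both 22RV1 columns (19 of 29 lower in both).

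Other parts of the androgen pathway were compared in the same fits. Of 22 listed coregulators and chaperones of the receptor, counting the receptor itself, 17 were measured, and 0 passed for nicotine in either line from group means. With the block NCOA1, a p160 coactivator, rose in LnCaP (0.33 ± 0.08 from group means, adjusted p = 0.0998, and 0.0482 with the block). In that fit 2.11% of all genes were called higher and 3.28% lower in LnCaP. FOXA1, the pioneer factor, was at 0.17 ± 0.12 in LnCaP and -0.09 ± 0.12 in 22RV1, and the cochaperone FKBP4 at -0.18 ± 0.16 and 0.06 ± 0.16. Both measured kallikreins had negative values in both lines. KLK2 fell in LnCaP with the block (-0.77 ± 0.36 from group means, adjusted p = 0.424, and 0.0133 with the block). It was at -0.60 ± 0.36 in 22RV1. Whether the calls of NCOA1 and KLK2 hold with 1 replicate number left out was not examined.

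Between untreated LnCaP and untreated 22RV1 cells, NR3C1, the glucocorticoid receptor gene, differed by -2.30 ± 0.17 (adjusted p = 2.87e-07). It had 4.89, 4.98 and 5.03 in LnCaP and 7.03, 7.47 and 7.31 in 22RV1, without overlap. The mineralocorticoid receptor gene NR3C2 was also lower in LnCaP (-1.11 ± 0.27, adjusted p = 0.00392), and the other 3 steroid receptor genes were not called. Of the 17 measured coregulators and chaperones, 5 were higher in untreated LnCaP cells than in untreated 22RV1 cells and 4 were lower. Over all genes 25.4% were called higher and 22.4% lower, so these counts do not set the list apart. TGFB1I1, a coactivator also known as ARA55, differed most (-2.24 ± 0.16, adjusted p = 2.69e-07), followed by NCOA1 (1.90 ± 0.08, adjusted p = 3.92e-09). EP300 (-0.61), STUB1 (-0.47) and NCOA4 (-0.41) were the other lower ones, and GATA2 (0.60), PIAS1 (0.51), KDM1A (0.30) and HSP90AB1 (0.25) the other higher ones. KLK3 was higher in LnCaP (4.09 ± 0.34, adjusted p = 1.02e-06). The 5 glucocorticoid-responsive members did not share a direction between the untreated lines, with FKBP5 and ZBTB16 lower in LnCaP, KLF9 higher (1.00 ± 0.27), and TSC22D3 (0.59 ± 0.27) and SGK1 (0.10 ± 0.11) not called.

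Proliferation genes moved with the nicotine comparison in LnCaP. Of 10 listed, 6 fell there from group means and 9 with the block (3.28% of all genes called lower). From group means 0.585% of all genes were called lower, and 0 genes of any kind were called without LnCaP nicotine replicate 2 or LnCaP untreated replicate 3. The list had a median log2 fold change of -0.61 and array means of 8.75 to 8.92 in nicotine-treated and 9.33 to 9.50 in untreated LnCaP cells. In 22RV1 all 10 had negative values with 0 called by limma, a median of -0.27 and array means of 9.51 to 9.78 in nicotine-treated and 9.83 to 10.07 in untreated cells. The endothelial list of 3 had array means of 5.45 to 5.59 in nicotine-treated and 5.27 to 5.39 in untreated LnCaP cells, without overlap, and 4.14 to 4.39 in nicotine-treated and 4.06 to 4.36 in untreated 22RV1 cells. Its VWF differed by 3.23 ± 0.15 between untreated LnCaP and untreated 22RV1 cells and was at 0.56 ± 0.15 for nicotine in LnCaP (adjusted p = 0.111). The 2 measured basal markers had 4.32 to 4.40 in nicotine-treated and 4.41 to 4.61 in untreated LnCaP cells. The 5 fibroblast markers had 5.27 to 5.40 in nicotine-treated and 5.27 to 5.48 in untreated LnCaP cells, and 5.82 to 6.03 in nicotine-treated and 5.77 to 6.07 in untreated 22RV1 cells, with LUM at -3.62 ± 0.33 between the untreated lines. The part of proliferation or of these markers in the members' values was not tested.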

How the data were processed

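Per the labels' protocols, total RNA was extracted with TRIzol and biotinylated cRNA was hybridised to Affymetrix arrays. The authors deposited log2 expression values for 22277 probe sets on 12 arrays, with array medians between 6.61 and 6.71. How they were normalized, with which software, and detection calls were not given in the sources used here. Their log base was read from their range (2.67 to 14.18). They were used as deposited.

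Of the probe sets, 19070 had 1 symbol in the platform annotation, and a gene was represented by its brightest probe set on average, which gave 11963 genes. Several probe sets existed for 13 members. All arrays entered 1 limma fit of group means (limma 3.58.1, R 4.3.3, lmFit and eBayes). The fit was tried on simulated data with independent noise on each array. That simulation held no effect of the replicate number and does not bear on the fit with the block. Two-sided p-values were corrected over all 11963 genes (Benjamini-Hochberg), with calls made at an adjusted p under 0.05. Precision is limited by how few arrays there are: the median SE within a line was 0.11 over all genes and 0.20 over the members.

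The labels number replicates alike in each group. Deviations from group means of same-numbered treated and untreated arrays correlated over genes with r = 0.465, 0.454 and 0.640 in 22RV1 and 0.371, 0.225 and 0.599 in LnCaP, all above 0.1, and the fit with the number as a block is therefore given beside the results it changes. In LnCaP untreated replicate 2 correlated more with treated replicate 1 (0.270), which leaves the pairing of numbers 1 and 2 there unsettled.

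The members and lists were chosen with earlier results of these data known. Values per array are given for members called for nicotine, for the 6 members with the smallest p in each line and for the difference of effects, and for the 4 highest and 4 lowest members between untreated lines.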

Additional observations from a re-analysis of the deposited data

How the results depend on the processing

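The fit with the replicate block called 6 members in LnCaP and 1 for the average of both lines, against 0 of each from group means, and called 0 in 22RV1 and for the difference, as group means did. With 1 number left out, an alternative chosen after seeing the data, the blocked fit called 1 member in LnCaP without the arrays numbered 1, 1 without those numbered 3 and 0 without those numbered 2. From group means the count for nicotine stayed at 0 in each line, for the average and for the difference, with each single array left out, without the arrays numbered 3, and under quantile normalization, median centring, averaged probe sets, a filter on dim genes (24 members left), a variance trend, array weights or the compared arrays alone. Over all genes the count in LnCaP was 83 and ranged between 0 and 113 with single arrays left out (0 without LnCaP nicotine replicate 2 or LnCaP untreated replicate 3, and 2 without LnCaP untreated replicate 1), and it was 1 from the 6 LnCaP arrays alone. For the lines, single arrays moved the nicotine-treated count of 20 between 16 and 21 and the untreated count of 19 between 17 and 21. With averaged probe sets MPHOSPH9 turned to -0.89 in nicotine-treated and -0.67 in untreated cells, because its probe sets disagree, TPD52 lost its calls (0.24 in nicotine-treated and 0.16 in untreated cells), and MAF and PART1 in LnCaP were at 0.15 and -0.12. Of 3856 recomputed values of single members, 2 turned, 20 lost and 23 gained a call. Low values have no detection call here. STEAP4, ORM1, SGK1, AMACR and TRPM8 lay in the lowest 25% of genes by mean value. Neither a difference nor its absence can be read with confidence for them. NR3C1, TGFB1I1 and LUM had low values in LnCaP, so the size of their line differences is not settled. The same holds for EAF2, MAF and BMPR1B, which had low values in 22RV1.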

Other observations

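The genes whose deviations from group means over the 12 arrays were most like those of FKBP5 were KRI1 (r = 0.957), ISG20L2 (0.939) and SLC19A1 (0.937). For TMPRSS2 they were HBEGF (0.977), AKAP9 (0.947) and RBM12 (0.920). They were picked as the highest of 11963 genes, and the points share arrays and replicate numbers. None of the other androgen-induced genes was among the 3 most alike for either. So few members among 11963 genes would seldom appear there, so this does not bear on whether the members vary together.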
